A study of Homo sapiens with 9 samples.

Results

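The 8 genes described here encode the ST6GAL and ST8SIA sialyltransferases, ST6GAL1, ST6GAL2 and ST8SIA1 to ST8SIA6. They were taken as every probe set whose RefSeq identifier maps to one of these symbols. All 8 were found among the 927 genes that could be named, with 10 of the 1259 probe sets of the array: ST8SIA4 had 3 probe sets and each other gene 1. The arrays measured glycosylation-related transcripts in bulk RNA of T84 and Caco-2, epithelial cell lines derived from human colon carcinomas, and no gene was altered in any group. The 9 arrays form 3 groups of 3. Treated T84 cells had received interferon gamma, a cytokine that lymphocytes release in inflamed mucosa, at 100 U/ml for 24 hours, and their passage is not given in the sources used here. Untreated T84 cells were at passage 68 and untreated Caco-2 cells at passage 37, both taken at about 90% confluence from 6-well plates. The study sought glycosylation genes that could contribute to a sialylated CD44 epitope, bound by the antibody GM35, that is highest in treated T84 and missing from Caco-2.

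Sialyltransferases are Golgi enzymes that move sialic acid from its CMP-activated form to the ends of sugar chains. The ST6GAL enzymes attach it in alpha-2,6 linkage to the galactose of a lactosamine end, mainly on N-glycans, and ST6GAL1 is the enzyme that makes most of this linkage in epithelial and liver cells and is often raised in colon carcinoma. The ST8SIA enzymes add sialic acid in alpha-2,8 linkage to a sialic acid that is already there, which gives disialyl gangliosides, short oligosialic chains or the long polysialic acid of the developing nervous system.

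Start-site sequence is shown for the member with signal in these cells and, as an example of the members at background, for the polysialyltransferase gene ST8SIA4. Both windows come from the RefSeq promoter table (GRCh38.p14) and run from 250 bases before to 50 bases after the annotated start. That table held 8 such windows for 5 of the 8 genes. Capitals mark the GC box, GGGCGG on either strand. The ST6GAL1 window lies at chr3:186930276-186930575 on the plus strand and the ST8SIA4 window at chr5:100903233-100903532 on the minus strand.
ST6GAL1: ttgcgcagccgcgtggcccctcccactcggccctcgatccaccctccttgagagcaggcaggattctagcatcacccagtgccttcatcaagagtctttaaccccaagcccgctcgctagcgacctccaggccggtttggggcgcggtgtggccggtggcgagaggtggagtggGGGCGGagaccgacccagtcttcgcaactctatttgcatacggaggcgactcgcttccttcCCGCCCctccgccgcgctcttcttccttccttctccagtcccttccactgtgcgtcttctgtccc
ST8SIA4: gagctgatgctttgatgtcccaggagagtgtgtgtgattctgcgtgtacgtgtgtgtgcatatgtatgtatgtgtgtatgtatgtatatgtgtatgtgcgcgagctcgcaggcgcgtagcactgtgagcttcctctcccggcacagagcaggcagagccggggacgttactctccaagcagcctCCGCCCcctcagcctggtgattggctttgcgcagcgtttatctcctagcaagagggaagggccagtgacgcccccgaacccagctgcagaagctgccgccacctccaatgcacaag

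The ST6GAL1 window held GC boxes that begin at bases -76 and -15 from the start, and the ST8SIA4 window held 1 that begins at -66. A GC box was found in 5 of the 8 member windows and in 45.0% of all 35116 windows in the table. Of the 8 windows 4 belong to ST6GAL2, 2 pairs of them overlap, and 1 GC box lies in both windows of a pair, so the 8 matches stand for 7 sites. The gamma-activated site TTCNNNGAA, a response element of interferon gamma, was in none of the 8 member windows and in 7.66% of all windows. The core of the interferon-stimulated response element, searched on either strand as GAAA, any 2 bases and GAAA, was also in none of the 8 and in 3.57% of all windows, and the TATA box TATAAA, likewise on either strand, in none and in 11.5%. Within a window no match overlapped another. ST6GAL1 had 24 CpG dinucleotides and a GC content of 64.0% in its window, ST8SIA4 had 16 and 57.3%, and the medians of all windows were 14 and 58.7%. These are counts of letters in 1 window per start, and ST6GAL1 is known to have several promoters.

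One of the 8 genes stood clear of background. The deposited table has no detection calls, so a background range was taken from 57 probe sets of 48 genes that belong to leukocytes, endothelium, connective tissue or neural cells. Their means over the 9 arrays lay between 3.41 and 7.14 log2 units with a median of 5.14, and the 90th percentile, 6.61, was used as the upper bound. Of all 1259 probe sets, 53.9% had means above it. ST6GAL1 had a group mean of 10.61 ± 0.0096 for treated T84, 10.90 ± 0.045 for untreated T84 and 10.46 ± 0.21 for Caco-2 (SD, n = 3 each), which places it 3.85 log2 units above that bound in the group where it was lowest. The other 9 member probe sets lay between 2.80 and 5.35 on every array, and 8 of them were below the median of the background list. Probe sets differ in how strongly they bind, so this range separates signal from background only roughly and puts no order among the genes. One gene of the background list, SIGLEC6, read 8.58 ± 0.26 in Caco-2, and the count of members above the bound was 1 with every other bound tried.

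**Figure D1:**
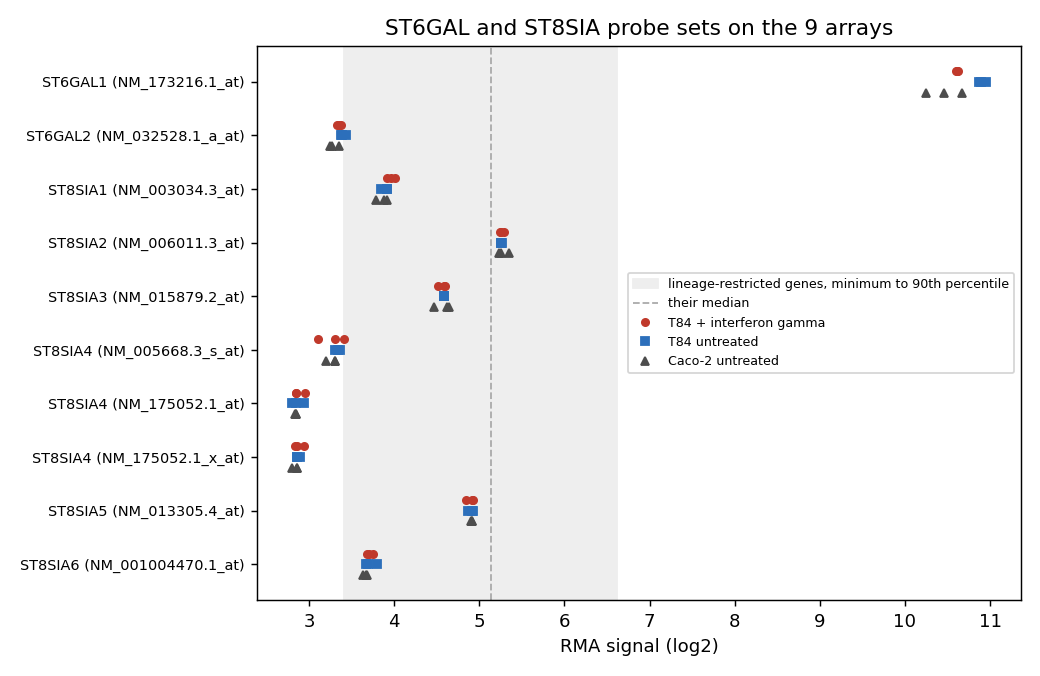
Log2 RMA signal of the 10 member probe sets (rows, with the RefSeq identifier and suffix of the probe set) on each of the 9 arrays, with circles for treated T84, squares for untreated T84 and triangles for Caco-2. The grey band runs from the lowest mean to the 90th percentile of the lineage-restricted probe sets, 3.41 to 6.61, and ST6GAL1 alone lies to its right.

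The arrays agreed closely within groups, with correlations over probe sets of at least 0.987. On the third principal component treated T84 replicate 3 lay at -2.92 (the others of its group at 1.71 and -0.51), untreated T84 replicate 3 at -4.92 (3.75 and 2.58) and Caco-2 replicate 1 at -9.28 (5.15 and 4.45). Their deviations from the group means correlated over probe sets at 0.56 (treated with untreated T84), 0.48 (treated T84 with Caco-2) and 0.76 (untreated T84 with Caco-2). Caco-2 replicate 1 stood furthest apart, and the differences of members and lists from Caco-2 are also given without it. Leaving out these 3 arrays together was tried as well. Replicates carry numbers in the labels but no statement of separate cultures. The p-values therefore cover the variation among these arrays alone, part of which may be technical, and 3 arrays a group limit the precision. Of 7 measured intestinal epithelial markers, 6 were above the background bound for treated T84, 6 for untreated T84 and 5 for Caco-2. Of 6 leukocyte markers 1 was above it in treated T84 (CD2, 6.65 ± 0.10) and none in the other groups, and none of 3 fibroblast markers was above it in any group. Of 3 endothelial markers 1 was above it in Caco-2 (PECAM1, 7.19 ± 0.082), and of 4 neural markers 1 was above it in every group (MAG, 7.16 ± 0.014 for treated T84, 7.03 ± 0.060 for untreated T84 and 7.06 ± 0.043 for Caco-2). The bound was set from leukocyte, endothelial, connective tissue and neural genes. Low counts for markers of these classes were therefore largely fixed beforehand and cannot show that such cells were absent.

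ST6GAL1 was highest in untreated T84. On single arrays its log2 signal was 10.62, 10.60 and 10.61 in treated T84, 10.89, 10.87 and 10.95 in untreated T84, and 10.67, 10.46 and 10.25 in Caco-2 (replicates 1 to 3). All 3 untreated T84 arrays lay above all arrays of both other groups, while treated T84 lay inside the range of Caco-2, whose replicate 1 was above every treated array. The order of means was untreated T84, treated T84 and Caco-2, and the last 2 did not differ beyond their spread. The table is bulk RNA, so fewer cells with the transcript and less of it per cell cannot be told apart.

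**Figure D2:**
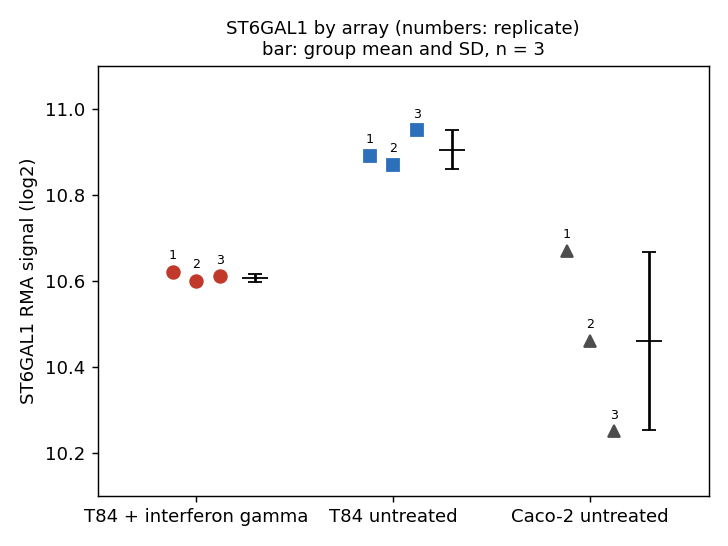
ST6GAL1 log2 RMA signal on each array of treated T84, untreated T84 and Caco-2, numbered by replicate, with the group mean and SD (n = 3) as a bar to the right of the points. The axis covers 1 log2 unit; untreated T84 lies above both other groups, and the Caco-2 arrays spread from 10.25 to 10.67.

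ST6GAL1 was lower in treated than in untreated T84 by a log2 fold change of -0.30 ± 0.09 (SE), that is 1.23-fold (95% confidence interval 1.06 to 1.43), with groups that did not overlap. It did not pass the test across the table (limma adjusted p = 0.0955, by the Benjamini-Hochberg method over all 1259 probe sets, with n = 3 in each group). None of the 8 members passed in either direction and 1 had an unadjusted p below 0.05, while of all probe sets 4.37% were higher, 5.8% lower and 10.2% passed in total. Groups did not overlap at ST6GAL1 and ST6GAL2, 2 of the 10 member probe sets, against 27.5% of all probe sets. The median log2 fold change of the 8 genes was -0.01, and that of all probe sets was also -0.01. Of the 7 epithelial markers 2 were higher and 1 lower in treated T84, MUC1 at 1.26 ± 0.05 (SE), MUC13 at 0.40 ± 0.07 and LGALS4 at -0.53 ± 0.05, and none of the leukocyte, endothelial, fibroblast or neural markers passed. Their part in the ST6GAL1 value was not tested.

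Whether ST6GAL1 passed rested in part on the Caco-2 arrays, which take no part in the difference itself. The linear model estimates 1 spread per probe set from all 9 arrays, and the SD of ST6GAL1 was 0.0096 in treated T84 and 0.045 in untreated T84 but 0.21 in Caco-2. Fitted to the 6 T84 arrays alone, the same fold change had an SE of 0.037 and an adjusted p of 0.00489. It also passed when Caco-2 replicate 1 (adjusted p = 0.0129) or Caco-2 replicate 3 (adjusted p = 0.0211) was left out of the limma fit. Over all settings the adjusted p ran from 0.00489 to 0.262 and the log2 fold change from -0.42 to -0.15. The smallest size came from centring each array on ribosomal protein genes, which moved the median of all probe sets to 0.13.

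In untreated T84 against Caco-2, ST6GAL1 passed the test. It was higher in untreated T84 by 0.44 ± 0.09 log2 units (SE), or 1.36-fold (95% confidence interval 1.17 to 1.58), with an adjusted p of 0.00425 in limma (n = 3 per group). It was 1 of 8 members higher and none lower, where 19.5% of all probe sets were higher, 24.2% lower and 43.7% passed in either direction. Without Caco-2 replicate 1 the difference was 0.55 ± 0.07 (adjusted p = 0.000243), and it passed in all 22 other settings, with log2 fold changes from 0.34 to 0.73. The groups did not overlap at 2 member probe sets, ST6GAL1 and ST6GAL2, against 49.6% of all probe sets. The median log2 fold change was 0.05 over the 8 genes and 0.02 over all probe sets. Of 7 measured intestinal epithelial markers, 6 were higher and 1 lower in untreated T84. Their summed log2 signal was 70.1 to 70.5 in untreated T84 and 56.3 to 58.0 in Caco-2. The counts against Caco-2 were the same for treated T84 (summed signal 71.0 to 71.4), where ST6GAL1 did not pass. Of the other markers, PDGFRB at -0.46 ± 0.09 (SE) and LUM at -0.72 ± 0.18 (2 of 3 fibroblast), PECAM1 at -0.62 ± 0.06 (1 of 3 endothelial) and NCAM1 at -0.92 ± 0.13 (1 of 4 neural) were lower, and CD22 at 0.34 ± 0.08 (1 of 6 leukocyte) was higher. The part of these markers in the ST6GAL1 difference was not tested.

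In treated T84 against Caco-2, no member passed, where 19.4% of all probe sets were higher, 26.2% lower and 45.6% passed in total, and no member had groups that did not overlap, against 53.5% of all. ST6GAL1 differed by 0.15 ± 0.09 log2 units (SE; 95% confidence interval -0.07 to 0.36; limma adjusted p = 0.238, n = 3 per group). Without Caco-2 replicate 1 it was 0.25 ± 0.07 higher and passed (adjusted p = 0.0145), without Caco-2 replicate 3 it was at 0.042 ± 0.07 (adjusted p = 0.664), and with quantile normalization its sign turned (-0.025). This comparison shares its arrays with both others, so the 3 differences of ST6GAL1 are not independent of each other.

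**Figure D3:**
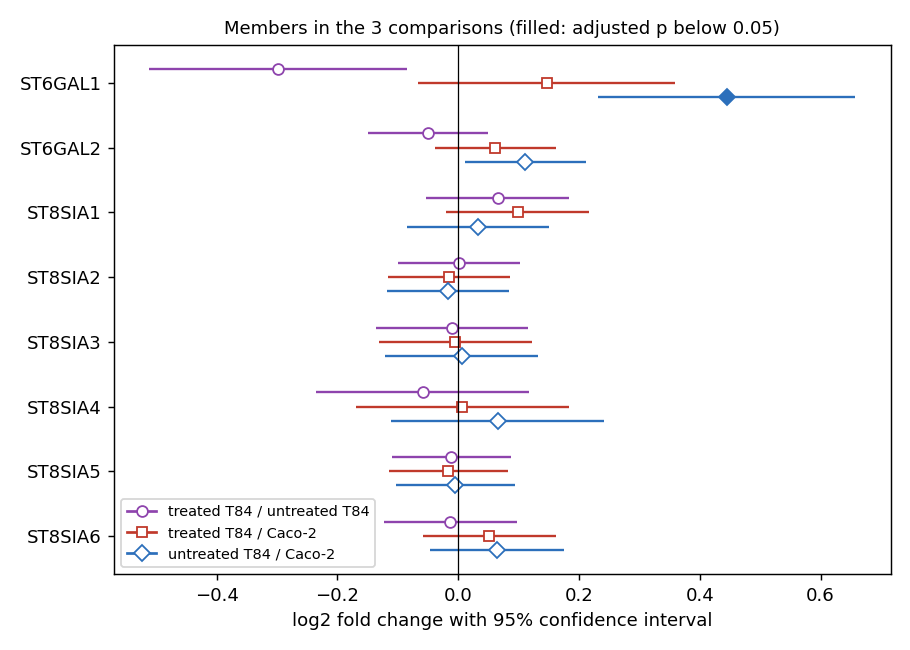
Log2 fold change with its 95% confidence interval for each of the 8 member genes (rows) in treated over untreated T84 (circles), treated T84 over Caco-2 (squares) and untreated T84 over Caco-2 (diamonds). The filled symbol, ST6GAL1 in untreated T84 over Caco-2 at 0.44, is the only member value with an adjusted p below 0.05, and the ST8SIA values lie between -0.06 and 0.10.

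ST6GAL2, the second enzyme of the family, is known mainly from brain and acts on a narrower set of acceptors. Its log2 signal was 3.33, 3.37 and 3.35 in treated T84, 3.43, 3.38 and 3.39 in untreated T84, and 3.35, 3.27 and 3.25 in Caco-2. Its group means lay below the lowest mean of the background list, and the whole range over the 9 arrays was 0.18. Untreated T84 lay above both other groups by small steps, as for ST6GAL1. The log2 fold change was -0.05 ± 0.04 (SE) in treated against untreated T84, 0.06 ± 0.04 in treated T84 against Caco-2 and 0.11 ± 0.04 in untreated T84 against Caco-2. None passed in limma (adjusted p = 0.661, 0.288 and 0.0718, n = 3 per group). The last passed in 5 other settings, among them without Caco-2 replicate 1 (0.14, adjusted p = 0.0196). All of these readings lie at background, so the differences are of array signal only.

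ST8SIA1 makes the disialyl ganglioside GD3 from GM3 and is known from melanoma and neural crest cells. It read 4.01, 3.96 and 3.92 in treated T84, 3.84, 3.92 and 3.92 in untreated T84, and 3.79, 3.92 and 3.88 in Caco-2. The 3 groups overlapped. It had the largest positive differences of the ST8SIA genes, 0.07 ± 0.05 (SE) in treated against untreated T84 and 0.10 ± 0.05 in treated T84 against Caco-2, and neither passed (limma adjusted p = 0.615 and 0.157, n = 3 per group). ST8SIA5, which acts on gangliosides that already carry sialic acid in the brain, read 4.89 ± 0.050 for treated T84, 4.90 ± 0.035 for untreated T84 and 4.91 ± 0.0083 for Caco-2 (SD, n = 3 each). Its 95% confidence interval in treated against untreated T84 ran from -0.11 to 0.09.

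ST8SIA2 and ST8SIA4 build polysialic acid, chiefly on the neural cell adhesion molecule NCAM1. ST8SIA4 was read by 3 probe sets, 2 of which carry the same RefSeq identifier, and all had group means below the lowest mean of the background list. The first of these read 2.95, 2.85 and 2.85 in treated T84, 2.85, 2.94 and 2.80 in untreated T84, and 2.85, 2.84 and 2.85 in Caco-2. The third probe set, marked as shared among transcripts, read 3.41, 3.31 and 3.11 in treated T84, 3.34, 3.36 and 3.31 in untreated T84, and 3.31, 3.30 and 3.20 in Caco-2. Treated replicate 3 was its lowest array, and without that array the log2 fold change in treated against untreated T84 was 0.026 in place of -0.06. Such a turn of sign, far inside the interval of -0.23 to 0.12, shows only that no direction could be read. ST8SIA2 read 5.26 ± 0.027 for treated T84, 5.26 ± 0.0023 for untreated T84 and 5.28 ± 0.060 for Caco-2 (SD, n = 3 each). Its interval in treated against untreated T84 ran from -0.10 to 0.10. Of 8 listed carriers of polysialic acid and their relatives, only NCAM1 and the chemokine receptor gene CCR7 were measured, and both were below the background bound in every group (NCAM1 5.41 ± 0.035 for treated T84, 5.31 ± 0.11 for untreated T84 and 6.23 ± 0.27 for Caco-2). Neither passed in treated against untreated T84, and both were lower than in Caco-2 in each T84 group, NCAM1 at -0.82 ± 0.13 (SE) in treated and -0.92 ± 0.13 in untreated T84 on a probe set shared among transcripts. Without Caco-2 replicate 1 these were -0.97 ± 0.07 and -1.07 ± 0.07, and both genes passed. Without the 3 arrays NCAM1 passed and CCR7 did not. Of all probe sets 26.2% were lower in treated and 24.2% in untreated T84 than in Caco-2 with all arrays. The bound was set in part from neural genes, the class of NCAM1, so the place of NCAM1 below it is no separate result.

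ST8SIA3, which makes oligosialic chains in brain, read 4.51, 4.59 and 4.60 in treated T84, 4.58 on each array of untreated T84, and 4.64, 4.62 and 4.47 in Caco-2. ST8SIA6, shown in mouse to place disialic acid on O-glycans, read 3.75, 3.70 and 3.68 in treated T84, 3.80, 3.67 and 3.69 in untreated T84, and 3.63, 3.67 and 3.68 in Caco-2. For both genes each pair of groups overlapped. Over ST6GAL2 and the 6 ST8SIA genes the log2 fold changes lay between -0.06 and 0.07 in treated against untreated T84, and their 95% confidence intervals lay between -0.23 and 0.18. Against Caco-2 the differences lay between -0.02 and 0.10 in treated T84 and between -0.02 and 0.11 in untreated T84. None of the ST8SIA genes passed without Caco-2 replicate 1, and ST8SIA1 was at 0.06 in treated T84 (limma adjusted p = 0.342). The 9 probe sets of these genes ranged over 0.098 to 0.31 log2 units across the 9 arrays, where the median range was 0.25 in the background list and 0.50 over all probe sets. For readings at background, a narrow interval bounds the change of the array signal and not that of a transcript below its reach.

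The ST3GAL and ST6GALNAC enzymes, which use other linkages or acceptors, give the setting of ST6GAL1 in these cells. Of these 12 genes, 6 were above the background bound for treated T84, 5 for untreated T84 and 9 for Caco-2, and 10 in at least 1 group. In treated against untreated T84, 1 passed as higher and 2 as lower (median log2 fold change -0.08), where 4.37% and 5.8% of all probe sets did. The lower ones were ST6GALNAC1, which makes sialyl-Tn on O-glycans (-0.43 ± 0.05, SE, limma adjusted p = 0.000916), and ST3GAL4, which caps the same lactosamine ends as ST6GAL1 in alpha-2,3 linkage (-0.55 ± 0.11, adjusted p = 0.0139). ST6GALNAC2, an enzyme of O-glycans, was higher (1.24 ± 0.12, adjusted p = 0.000405, n = 3 per group for each). In untreated T84 ST6GALNAC2 read just below the background bound (6.57 ± 0.14, SD). ST6GAL1, at -0.30, lay on the same side as the 2 that fell. Against Caco-2 2 were higher and 7 lower in treated T84, and 3 higher and 6 lower in untreated T84. The ST6GALNAC1 difference from Caco-2 was 3.93 ± 0.05 in treated and 4.36 ± 0.05 in untreated T84, beside 0.15 and 0.44 for ST6GAL1. ST3GAL6, read by a probe set shared among transcripts, was lower in both (-3.05 ± 0.17 and -3.17 ± 0.17), and likewise ST3GAL1, also read by a shared probe set (-1.42 ± 0.10 and -1.33 ± 0.10), all past the limma test (n = 3 per group). Below the background bound were ST6GALNAC1 in Caco-2 (5.18 ± 0.053, SD) and ST3GAL6 in treated (3.72 ± 0.089) and untreated T84 (3.60 ± 0.15). Without Caco-2 replicate 1 the counts were 2 higher and 6 lower in treated and 3 higher and 6 lower in untreated T84, and each of these 3 genes still passed.

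**Figure D4:**
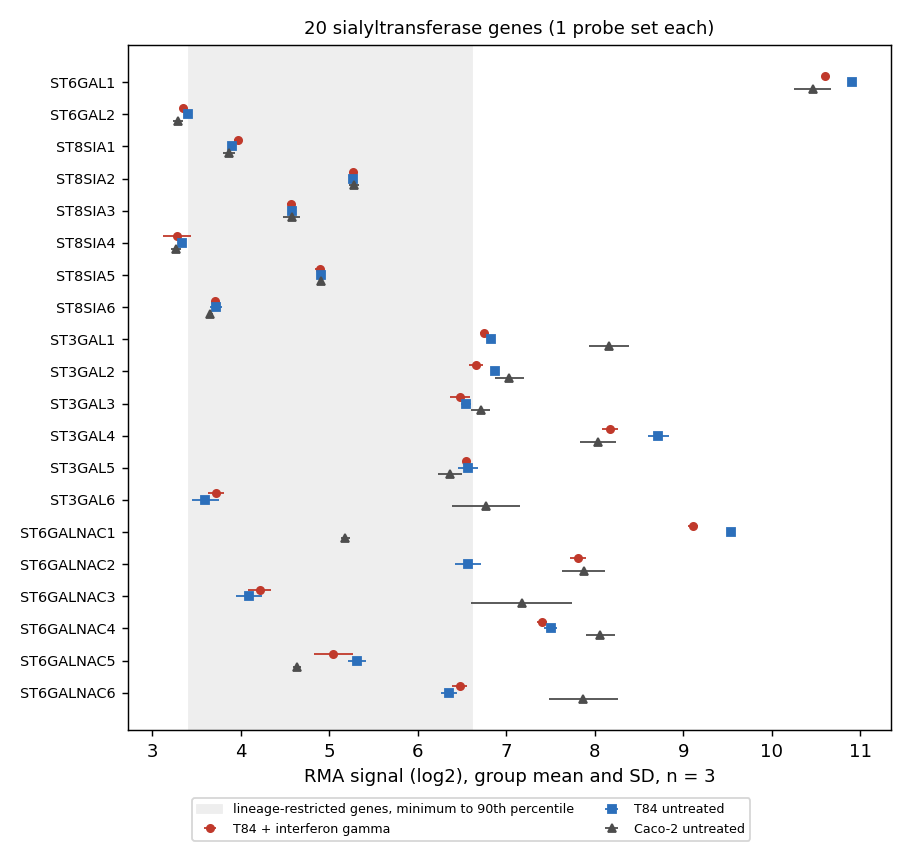
Group mean and SD (n = 3) of the log2 RMA signal for 20 sialyltransferase genes, 1 probe set each, in treated T84 (circles), untreated T84 (squares) and Caco-2 (triangles), with the grey band as the range of lineage-restricted genes, 3.41 to 6.61. ST6GAL1 lies between 10.46 and 10.90 in all groups, the other 7 members lie at or below 5.28, and several ST3GAL and ST6GALNAC genes lie on both sides of the band's upper edge by cell line. Rows are read against the band and across groups, since signals of different probe sets are not on a common scale.

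Enzymes that trim, branch, modify or extend N-glycans, only some of which build the lactosamine acceptor of ST6GAL1, were mostly above background. Of 14 measured, 11 were above the bound for treated T84, 11 for untreated T84 and 12 for Caco-2. None passed in treated against untreated T84 (median log2 fold change -0.03), and 1 passed as lower without Caco-2 replicate 1. Against Caco-2, none was higher and 8 were lower in treated T84, and none was higher and 4 were lower in untreated T84, where 26.2% and 24.2% of all probe sets were lower. Without Caco-2 replicate 1, 2 were higher and 7 lower in treated T84, and 1 higher and 7 lower in untreated T84. MGAT3, which adds the bisecting GlcNAc, was 6.96 ± 0.073 for treated T84, 7.38 ± 0.055 for untreated T84 and 7.93 ± 0.25 for Caco-2 (SD, n = 3). MGAT1, which starts complex N-glycans, was at -0.39 ± 0.09 (SE) in treated and -0.41 ± 0.09 in untreated T84 against Caco-2. The mannosidase gene MAN2A1 was at -0.64 ± 0.15 in treated T84, where it read below the background bound (6.31 ± 0.018, and 6.95 ± 0.36 for Caco-2). The galactosyltransferase gene B4GALT1 was at -0.37 ± 0.10 in untreated T84. Each of these passed the test (limma adjusted p at most 0.0195, n = 3 per group), also without Caco-2 replicate 1, B4GALT1 only narrowly (limma adjusted p = 0.0486). Without the 3 arrays that deviate together B4GALT1 did not pass in untreated T84 (limma adjusted p = 0.0677). In treated T84 B4GALT1 passed with all arrays but not without Caco-2 replicate 1 (limma adjusted p = 0.0612). With ribosomal centring, the median of all probe sets in the Caco-2 comparisons moved to 0.45 (treated T84) and 0.30 (untreated T84), and the direction of small differences from Caco-2 was tied to the scaling.

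Genes that supply and remove the sialic acid used by all 8 members were measured in 12 of 17 cases, and 10 were above background in each group. In treated against untreated T84 none rose and 1 fell, GNE, the enzyme that starts sialic acid synthesis (-1.02 ± 0.11, SE, limma adjusted p = 0.000757, n = 3 per group). Against Caco-2 3 were higher and 4 lower in treated T84, and 3 and 3 in untreated T84. GNE was higher by 1.10 ± 0.11 in treated and by 2.11 ± 0.11 in untreated T84. Like ST6GAL1, GNE was highest in untreated T84, but ST6GAL1 did not differ beyond its spread between treated T84 and Caco-2. The sialic acid lyase gene NPL, below the background bound in every group, was at -1.08 ± 0.07 in treated and -1.11 ± 0.07 in untreated T84. The sialidase gene NEU1, whose probe set can cross-hybridise, was at -1.45 ± 0.12 and -1.06 ± 0.12, and all of these passed the limma test, also without Caco-2 replicate 1, when the counts were 4 higher and 3 lower in treated and 3 and 3 in untreated T84. In treated against untreated T84 the counts without that array were 1 higher and 3 lower, with GNE among those that passed.

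Around ST8SIA1 and ST8SIA5, all 12 listed glycolipid enzymes were measured, and 8 were above background for treated T84, 8 for untreated T84 and 7 for Caco-2. ST3GAL5, which makes GM3, the substrate of ST8SIA1, was just below the bound in each group (6.54 ± 0.021 for treated T84, 6.56 ± 0.11 for untreated T84 and 6.37 ± 0.14 for Caco-2), and B4GALNT1, which makes GM2 and GD2, was further below it (5.87 for treated T84, 5.82 for untreated T84 and 5.92 for Caco-2). In treated against untreated T84 none was higher and 1 lower, GM2A, the GM2 activator gene (-0.64 ± 0.16, SE, adjusted p = 0.0442). Of all probe sets 4.37% were higher and 5.8% lower there. Against Caco-2, 1 was higher and 5 were lower in each T84 group. The shares of all probe sets were 19.4% and 26.2% in treated T84 and 19.5% and 24.2% in untreated T84. The lysosomal genes GM2A (-1.83 ± 0.16 and -1.19 ± 0.16) and GLB1 (-1.13 ± 0.09 and -0.89 ± 0.09) were lower in treated and in untreated T84, both past the limma test (n = 3 per group). Both still passed without Caco-2 replicate 1, with 1 gene of the list higher and 6 lower in each T84 group. Without the 3 arrays GM2A no longer passed in treated against untreated T84 (-0.48 ± 0.11, adjusted p = 0.0567). The probe sets of GM2A and GLB1 are shared among transcripts.

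Siglecs and selectins, the receptors that read sialylated chains, were mostly below the background bound. Of 17 measured genes, 2 were above it for treated T84, 2 for untreated T84 and 3 for Caco-2. The bound came from genes of leukocytes, endothelium, connective tissue and neural cells, SIGLEC6 among them. Low counts for receptors of such cells were therefore largely built in and are no separate result. None of the 17 genes passed in treated against untreated T84, where 10.2% of all probe sets passed. CD22, the B cell siglec that binds the linkage made by ST6GAL1, read 5.92 ± 0.078 for treated T84, 6.04 ± 0.085 for untreated T84 and 5.70 ± 0.12 for Caco-2, below the bound in each. Its difference from Caco-2 passed at 0.22 ± 0.08 (SE, limma adjusted p = 0.0408) in treated and 0.34 ± 0.08 (adjusted p = 0.00603) in untreated T84, and SIGLEC6 was lower at -2.83 ± 0.12 and -2.93 ± 0.12 (n = 3 per group). With all arrays these were the 1 higher and 1 lower in each T84 group, and without Caco-2 replicate 1, 3 were higher and 1 lower in each, both genes among them. With all arrays 45.6% of all probe sets passed in treated and 43.7% in untreated T84 against Caco-2.

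By the root mean square difference of signals centred on each gene's own mean, the genes with profiles closest to that of ST6GAL1 over the 9 arrays included the procollagen proteinase gene BMP1 (0.072), the transporter family gene SLC35E1 (0.076), CNPPD1 (0.089) and the cytokine gene IL1B (0.099). The median over 926 genes was 0.25, and the spread of ST6GAL1 about its own mean was 0.21. These profiles carry the same 3 groups and the same array deviations, so the likeness is a description without a test. IL1B read below the background bound in treated T84 (6.49 ± 0.046, SD) and Caco-2 (6.24 ± 0.16), and just above it in untreated T84 (6.68 ± 0.12). BMP1 read 7.79 ± 0.012 for treated T84, 8.05 ± 0.057 for untreated T84 and 7.64 ± 0.13 for Caco-2 (SD, n = 3 each). In treated against untreated T84 it was at -0.25 and, like ST6GAL1, did not pass (limma adjusted p = 0.0585), and in untreated T84 against Caco-2 it was at 0.40 and passed (adjusted p = 0.00147, n = 3 per group).

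**Figure D5:**
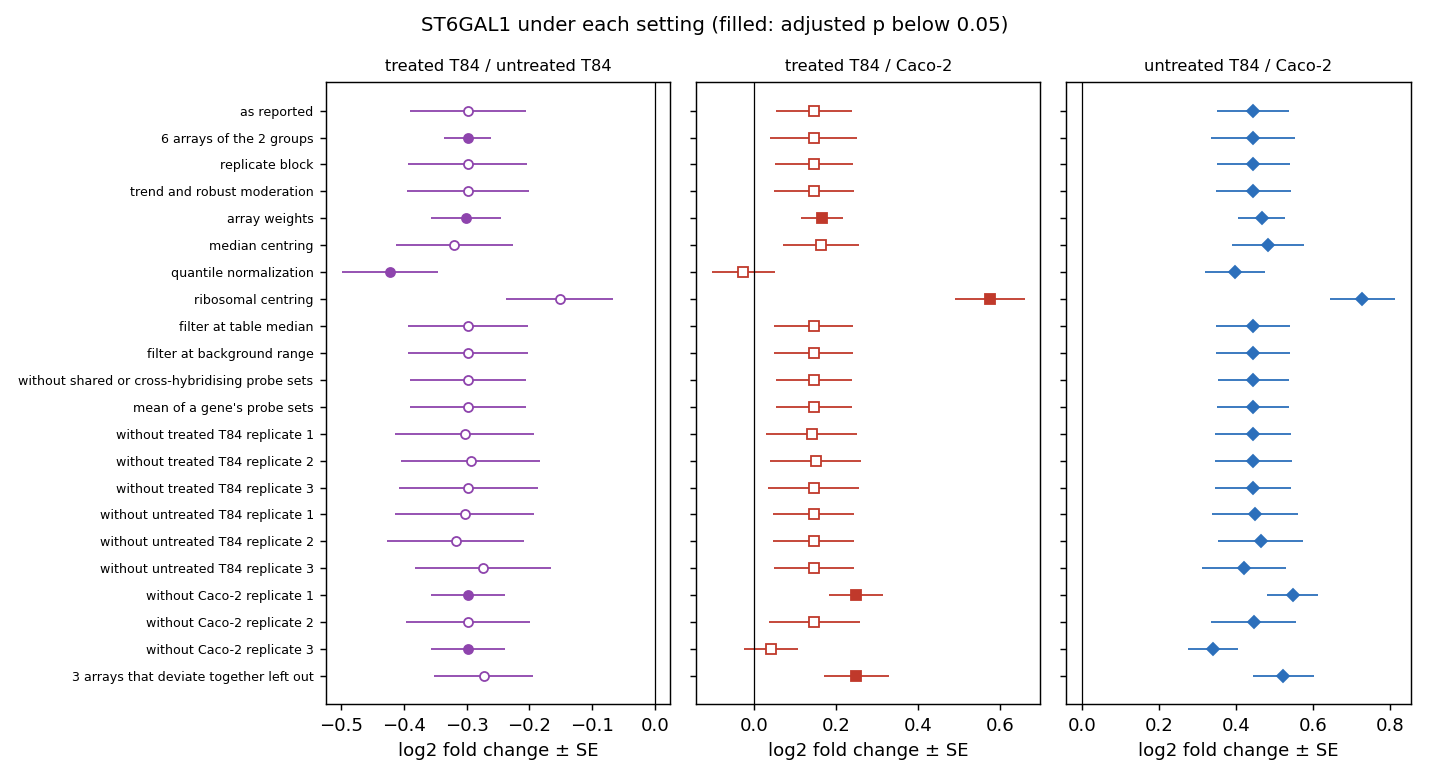
ST6GAL1 log2 fold change with its standard error in the 3 comparisons (panels) under the reported fit and each setting that refits the model (rows), with filled symbols where the adjusted p was below 0.05. In treated over untreated T84 the values lie between -0.42 and -0.15 and are filled in 5 other settings, and in untreated T84 over Caco-2 they lie between 0.34 and 0.73 and are filled in every row.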

How the data were processed

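Per the labels' protocols, Trizol-extracted RNA (0.5 ug per sample) gave cRNA carrying biotin, which single-colour arrays read by an Affymetrix protocol. The deposited values are log2 signals per probe set that the authors made with RMA, per the submitters' processing notes, with no version named there. They were used as deposited.

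RefSeq identifiers without versions named 1043 of 1259 probe sets (927 genes) through a GRCh38.p14 gene table, and 216 stayed unnamed in every test. For genes with several probe sets, the one with the highest mean stood for the gene. One linear model with group as its factor was fitted to 9 arrays with limma 3.58.1 in R 4.3.3 (6 residual and 2.12 prior degrees of freedom), with Benjamini-Hochberg adjustment over all 1259 probe sets and a threshold of 0.05. The fit was tested on simulated data. Named genes were all members, up to 3 per list and comparison among those past the test, and the 5 nearest profiles of a member that passed; where a further gene is named, it was chosen after its values were seen. Some genes that this rule selects are not reported here. The members, lists and alternatives were chosen with earlier results of these data known. Alternatives changed which arrays were fitted, the block by replicate, moderation, weights, scaling, filters, probe sets and thresholds; leaving out 3 arrays that deviate together, and the lists without Caco-2 replicate 1, were added after the data were seen. Tables and figures used pandas 2.3.3 and matplotlib 3.10.9.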

Additional observations from a re-analysis of the deposited data

How the results depend on the processing

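ST6GAL1 was the 1 member above background with every bound and without any single array. Members past the test numbered 0 in treated against untreated T84, 0 in treated T84 against Caco-2 and 1 in untreated T84 against Caco-2. The first count was 1 with the 6 arrays of the 2 groups, array weights, quantile normalization (each ST6GAL1) or ribosomal centring (ST8SIA1), and 0 to 1 without single replicates. The second was 2 with array weights, 8 with ribosomal centring, 1 without the 3 arrays that deviate together (treated T84 replicate 3, untreated T84 replicate 3 and Caco-2 replicate 1), and 0 to 1 without single replicates. The third was 2 (ST6GAL1 and ST6GAL2) with trend and robust moderation, array weights or median centring, 8 with ribosomal centring, and 1 to 2 without single replicates. ST6GAL1 in treated against untreated T84 also passed at -0.30 on the 6 arrays, -0.30 with array weights and -0.42 with quantile normalization, and lay between -0.32 and -0.27 without single replicates. In treated T84 against Caco-2 it passed at 0.17 with array weights, 0.58 with ribosomal centring and 0.25 without the 3 arrays, turned to -0.025 with quantile normalization, and lay between 0.042 and 0.25 without single replicates.

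Ribosomal centring subtracts the same value from all probe sets of an array, so it shifts every probe set of a comparison by the same amount. It moved the median of all probe sets to 0.13, 0.45 and 0.30 in the 3 comparisons, and all members moved with it. In treated against untreated T84, ST6GAL2 turned to 0.097, ST8SIA3 to 0.14, ST8SIA4 to 0.088, ST8SIA5 to 0.13 and ST8SIA6 to 0.13. Against Caco-2, ST8SIA2 turned to 0.41 in treated and 0.27 in untreated T84, ST8SIA5 to 0.41 and 0.28, and ST8SIA3 to 0.43 in treated T84. With quantile normalization ST8SIA2 turned to 0.059 in treated and 0.085 in untreated T84 and ST8SIA5 to 0.064 and 0.091, none past the test. ST8SIA4 in treated against untreated T84 turned to 0.024 without shared probe sets and lay between -0.13 and 0.026 without single replicates (0.026 without treated replicate 3), and ST8SIA1 turned to -0.019 in untreated T84 against Caco-2 without the 3 arrays. The turns with ribosomal centring are that shared shift, and the cause of the turns in the other settings was not tested. Over all probe sets the 128, 574 and 550 calls became 313, 1085 and 1033 with ribosomal centring, and the 128 became 231 with array weights and 79 at a threshold of 0.01. Deviations of same-numbered arrays correlated at 0.39, -0.02 and 0.56 between treated and untreated T84 (replicates 1 to 3). In pairs with Caco-2 they correlated from -0.64 to 0.47. With 3 arrays a group these values cannot settle whether the numbers pair the arrays. With the replicate block the ST6GAL1 log2 fold changes stayed at -0.30, 0.15 and 0.44 (limma adjusted p = 0.15, 0.276 and 0.0106), with no call changed among the members.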
